A study of Homo sapiens with 4 samples.

Results

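The genes described here are 45 genes of mitosis, chosen by name as members of the kinetochore, the spindle, the cyclin B and CDK1 engine and the machinery of chromosome separation and cytokinesis. The choice was made with earlier results of these data known, so their counts beside all genes are descriptions, not tests. All 45 genes were found among the 24241 genes with a symbol on the arrays. They were measured in MOLM-14, a human cell line derived from acute myeloid leukaemia, kept in alpha-MEM with serum. One set of cultures had 12 h of 10 nM rapamycin, which blocks the nutrient-sensing kinase mTORC1, and then 6 h of 30 µM GSK621, which switches on the kinase AMPK. The other set had the same 6 h of 30 µM GSK621 with no rapamycin before it. GSK621 was thus common to both groups, and every difference given is the one that goes with rapamycin. Each group had 2 arrays, labelled as biological replicates of this single line. The p-values rest on the spread between them, moderated with the spread of all genes. The series holds no arrays of cells without GSK621.

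A cell enters mitosis when cyclin B binds the kinase CDK1 and the CDC25 phosphatases remove the brake on that kinase. Spindle microtubules then attach to the chromosomes at kinetochores, and a checkpoint built around BUB1, BUB1B, TTK and MAD2L1 holds back the anaphase-promoting complex (APC/C) until every kinetochore is attached. CDC20 activates that ubiquitin ligase, which then releases separase to part the sister chromatids. Most of these genes are transcribed in G2 and M phase, by FOXM1 and MYBL2 acting with the MuvB core, and are held down earlier in the cycle by the DREAM complex, which reads a promoter element named the cell cycle homology region.

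Levels are the authors' log2 values, and differences are rapamycin then GSK621 minus GSK621 on the log2 scale. Of the 45 genes, 38 had a difference below 0 and 7 a difference above 0, with a median of -0.16 and a range of -0.60 to 0.06. Over all genes 48.8% had a difference below 0, and the median was 0.0045. The genes' own spread was of the size of their median, with a standard deviation (SD) of 0.15 over the 45 genes and a median standard error (SE) of 0.11. CDC20, the APC/C activator, stood farthest from 0, at a level 1.52-fold lower after rapamycin and GSK621. At the other end were BIRC5 and KIF23, each 1.04-fold higher. None of the 45 passed the test over all genes with limma at an adjusted p under 0.05, where 0% of the 24241 genes passed, and the adjusted p of the 45 ran from 0.430 to 0.998. With limma at an unadjusted p under 0.05, 10 of the 45 had lower values and 0 had higher values, against 4.20% of all genes lower and 4.31% higher. Those 10 were CDC20, NUF2, CKAP2, BUB1, NEK2, CDK1, CCNB1, HMMR, DLGAP5 and CCNB2. That count was 1 without replicate 1 of rapamycin then GSK621 (3.37% of all genes lower) and 4 without GSK621 replicate 2 (3.82%), while a fit with a variance trend and robust estimation gave 20 (5.05%). With single arrays left out, the number of genes below 0 ran from 33 to 42. A sign that turned in at least 1 of 13 other settings was seen for 13 genes, namely CDC25B, BUB1B, SPC25, CENPA, CENPE, CENPF, BIRC5, CDCA8, KIF14, ASPM, UBE2C, PTTG1 and FOXM1. Leaving out 1 array moved the difference by over 1.5 times in 29 of the 45 genes, these 13 included, and in 16 it did not.

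For 28 of the 45 genes the 2 groups shared no range of values. In 27 of these both arrays of rapamycin then GSK621 lay below both GSK621 arrays, where 18.9% of all genes did so, and in 1, KIF23, they lay above, where 20.5% of all genes did so. The median level of the 45 genes was 7.90 and 7.93 on the arrays of rapamycin then GSK621, against 7.95 and 8.07 on the GSK621 arrays. Replicate 2 of GSK621 was the highest of the 4 arrays in this median. The median over all genes was 5.44 and 5.40, against 5.45 and 5.40, so in each group replicate 1 lay above replicate 2. After centring each array on its median, 24 of the 45 genes lay below without overlap, as did 4288 of all 24241 genes. Every one of the 45 genes lay above the median level of the array, the lowest being PTTG1 at percentile 56.5. In RNA from a whole culture, fewer cells in G2 and M phase and less of these transcripts per cell cannot be told apart.

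**Figure D1:**
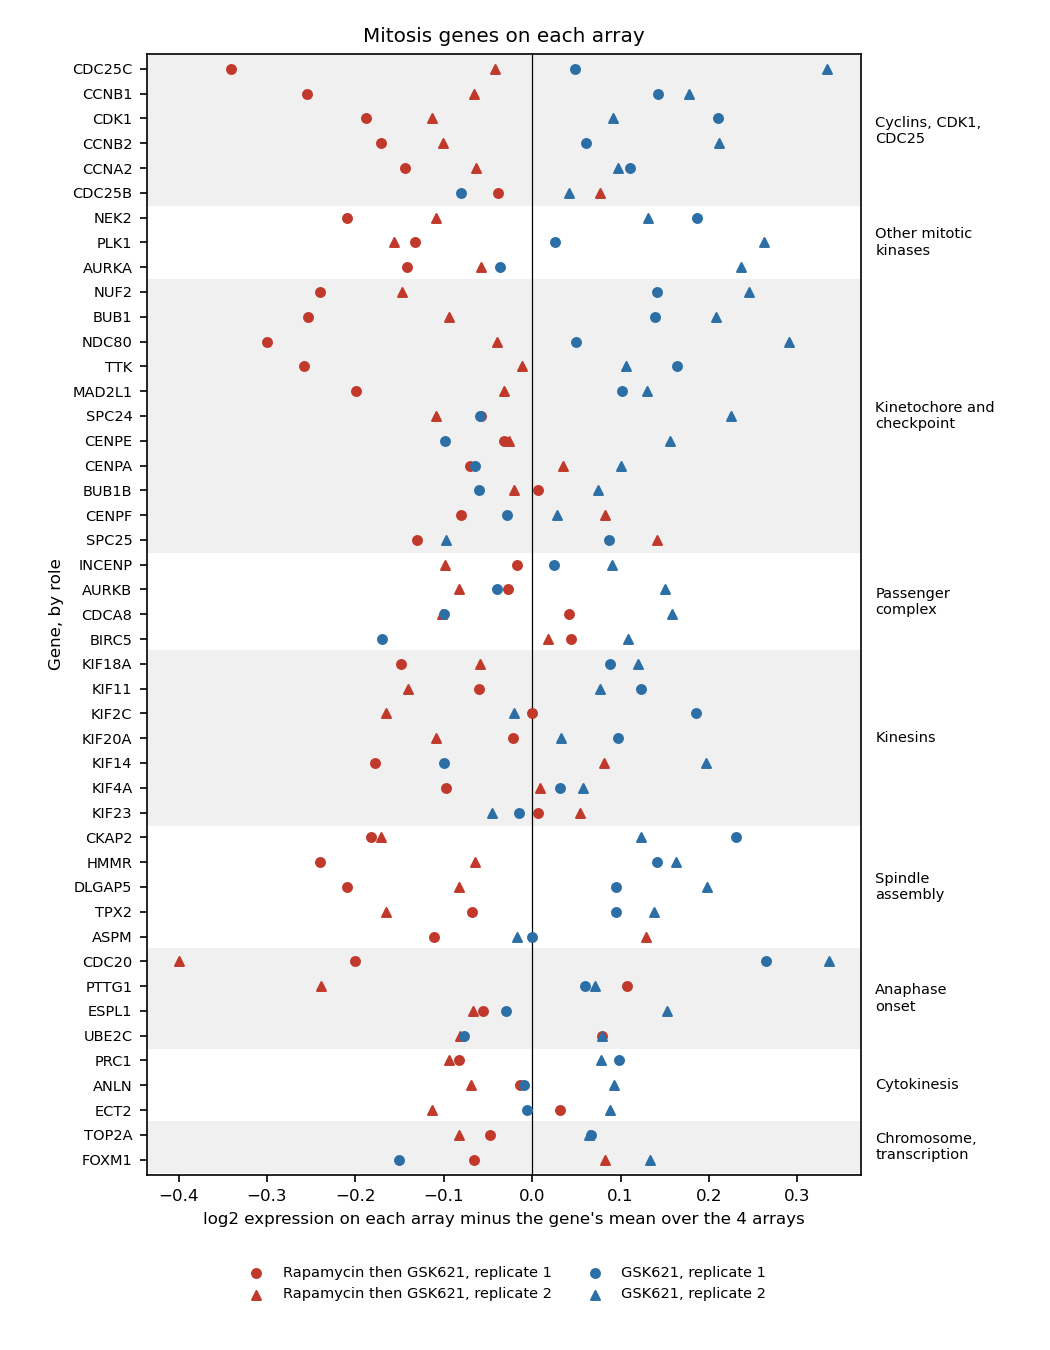
log2 expression of each of the 45 mitosis genes on each array, as the distance from that gene's mean over the 4 arrays. Red symbols are rapamycin then GSK621 and blue symbols GSK621 alone, circles replicate 1 and triangles replicate 2, with genes grouped by role. Red lies left of blue without overlap in 27 genes and right of it in KIF23, and the symbols mix in 17. Of all genes 18.9% were lower and 20.5% higher without overlap.

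Of 11 markers of myeloid leukaemia identity, 9 were measured under a name. LYZ lay at percentile 99.7 of level, FLT3 at 98.0, CEBPA at 94.2 and MEIS1 at 92.4. Lower levels were seen for SPI1 at 75.5, ITGAM at 69.7, CSF1R at 68.8 and MPO at 60.9, and the monocyte marker CD14 lay at 19.6. Of 11 markers of other blood cells 9 were measured, and their median level was 4.44 and 4.72 in rapamycin then GSK621 cells, against 4.59 and 4.60 in GSK621 cells. The haemoglobin gene HBB lay at percentile 3.0 of level, the B cell gene MS4A1 at 14.5 and the T cell gene CD3E at 24.1, but the B cell gene CD79A lay at 52.4, HBA1 at 66.3 and NCAM1, a marker of natural killer cells, at 90.7. Of the 9 markers of other blood cells 5 had a log2 difference above 0 and 4 below 0, with a median of 0.16. The platelet gene PF4 had -0.33 ± 0.10 (SE), NCAM1 -0.24 ± 0.09 and ITGA2B, also on that list, -0.01 ± 0.13. Any part of these markers in the differences of mitosis genes was not tested.

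The promoters of the mitosis genes share letters that the choice of genes did not use. RefSeq promoter sequence of build GRCh38.p14 was at hand for 39 of the 45 genes, as 49 listed transcription starts, and the 250 bases before each start were searched. The cell cycle homology region was searched as TTTGAA or TTTAAA and the CCAAT box, bound by the factor NF-Y, as CCAAT, on both strands. The 6 promoters below belong to genes named in this account that had the smallest p and a match to the homology region, and they are shown so that the spacing of these letters can be seen. Capitals mark both kinds of match, in either orientation, and each sequence ends at the base before the start.
CDC20: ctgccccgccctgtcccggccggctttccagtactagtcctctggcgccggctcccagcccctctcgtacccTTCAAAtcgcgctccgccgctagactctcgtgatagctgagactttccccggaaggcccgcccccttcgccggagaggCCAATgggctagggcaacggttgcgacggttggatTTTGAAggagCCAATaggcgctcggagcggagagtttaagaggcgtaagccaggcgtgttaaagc
CDK1: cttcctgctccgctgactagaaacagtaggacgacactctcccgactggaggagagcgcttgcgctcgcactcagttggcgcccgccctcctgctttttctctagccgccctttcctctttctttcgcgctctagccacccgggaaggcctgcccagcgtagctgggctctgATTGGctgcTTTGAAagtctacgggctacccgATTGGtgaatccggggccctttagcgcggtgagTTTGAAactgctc
CCNB1: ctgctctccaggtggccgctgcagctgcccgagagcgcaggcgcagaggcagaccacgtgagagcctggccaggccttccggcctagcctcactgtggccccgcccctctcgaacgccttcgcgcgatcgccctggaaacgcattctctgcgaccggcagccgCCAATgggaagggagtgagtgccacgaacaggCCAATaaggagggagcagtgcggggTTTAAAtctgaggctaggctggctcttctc
HMMR: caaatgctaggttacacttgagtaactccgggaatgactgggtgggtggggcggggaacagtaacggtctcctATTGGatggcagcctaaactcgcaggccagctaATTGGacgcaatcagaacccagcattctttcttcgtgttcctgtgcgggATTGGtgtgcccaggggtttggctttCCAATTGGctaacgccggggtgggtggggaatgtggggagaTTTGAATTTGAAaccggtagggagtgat
DLGAP5: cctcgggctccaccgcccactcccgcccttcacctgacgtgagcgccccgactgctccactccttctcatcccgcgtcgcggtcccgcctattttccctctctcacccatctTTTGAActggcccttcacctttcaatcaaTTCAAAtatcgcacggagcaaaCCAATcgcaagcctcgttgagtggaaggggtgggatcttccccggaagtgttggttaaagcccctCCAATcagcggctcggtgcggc
CCNB2: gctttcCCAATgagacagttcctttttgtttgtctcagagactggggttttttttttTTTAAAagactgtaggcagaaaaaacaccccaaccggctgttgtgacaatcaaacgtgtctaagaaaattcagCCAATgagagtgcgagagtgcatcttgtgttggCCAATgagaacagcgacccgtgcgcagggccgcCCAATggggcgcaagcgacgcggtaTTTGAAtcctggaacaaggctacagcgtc
These lie at chr1:43358731-43358980 on the plus strand for CDC20, chr10:60778228-60778477 (plus) for CDK1, chr5:69166900-69167149 (plus) for CCNB1, chr5:163460382-163460631 (plus) for HMMR, chr14:55191586-55191835 (minus) for DLGAP5 and chr15:59104896-59105145 (plus) for CCNB2. CDK1 has 2 listed starts, and the start with more matches is shown.

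In the CCNB1 promoter the homology region begins 30 bases before the start, with CCAAT boxes beginning at 87 and 55 bases. CCNB2 has the region at 29 bases, with boxes at 120, 87 and 54 bases and a further box and a TTTAAA farther upstream. The CDC20 promoter has boxes at 100 and 55 bases and the region at 178 and 65 bases. In HMMR the region occurs as a direct repeat at 28 and 22 bases, and a pair of its 5 box matches overlap on opposite strands. A homology region was present in 63.3% of the 49 promoters of mitosis genes, against 21.9% of the 35116 promoters in the RefSeq table. It began within 50 bases of the start in 38.8% of them, against 4.39% of all. A CCAAT box was present in 75.5% against 32.0%, and both letters together in 55.1% against 7.64%. The 144 promoters of the other mitosis genes described below held the homology region in 27.8%, within 50 bases of the start in 10.4%, a CCAAT box in 49.3% and both in 17.4%. In promoters of DNA replication and G1/S genes, 10.4% of 48 held the homology region and 58.3% a CCAAT box. The E2F letters TTTCCCGC or TTTGGCGC were present in 2.04% of the 49 mitosis promoters, 10.4% of those of other mitosis genes, 33.3% of the G1/S promoters and 1.93% of all. Other forms of the E2F site were not searched, so these shares do not count every possible site.

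Within the mitosis genes, differences with and without these letters are given as a description. The 28 genes with a homology region had a median log2 difference of -0.13 and the 11 without it -0.23, and the 32 genes with a CCAAT box had -0.15 against -0.16 for the 7 without. A pair of CCAAT boxes 31 to 34 bases apart, a spacing chosen after the values were seen and so not tested, occurred in NEK2, SPC25, CCNB1, HMMR, CDK1 and CCNB2. Their median difference was -0.30, against -0.13 for the other 33 genes with a promoter entry. SPC25, one of the genes with a pair, had 0.01. As the spacing was chosen with these values in view, the contrast is a description only. Such a pair was present in 12.2% of the mitosis promoters and 1.28% of all.

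**Figure D2:**
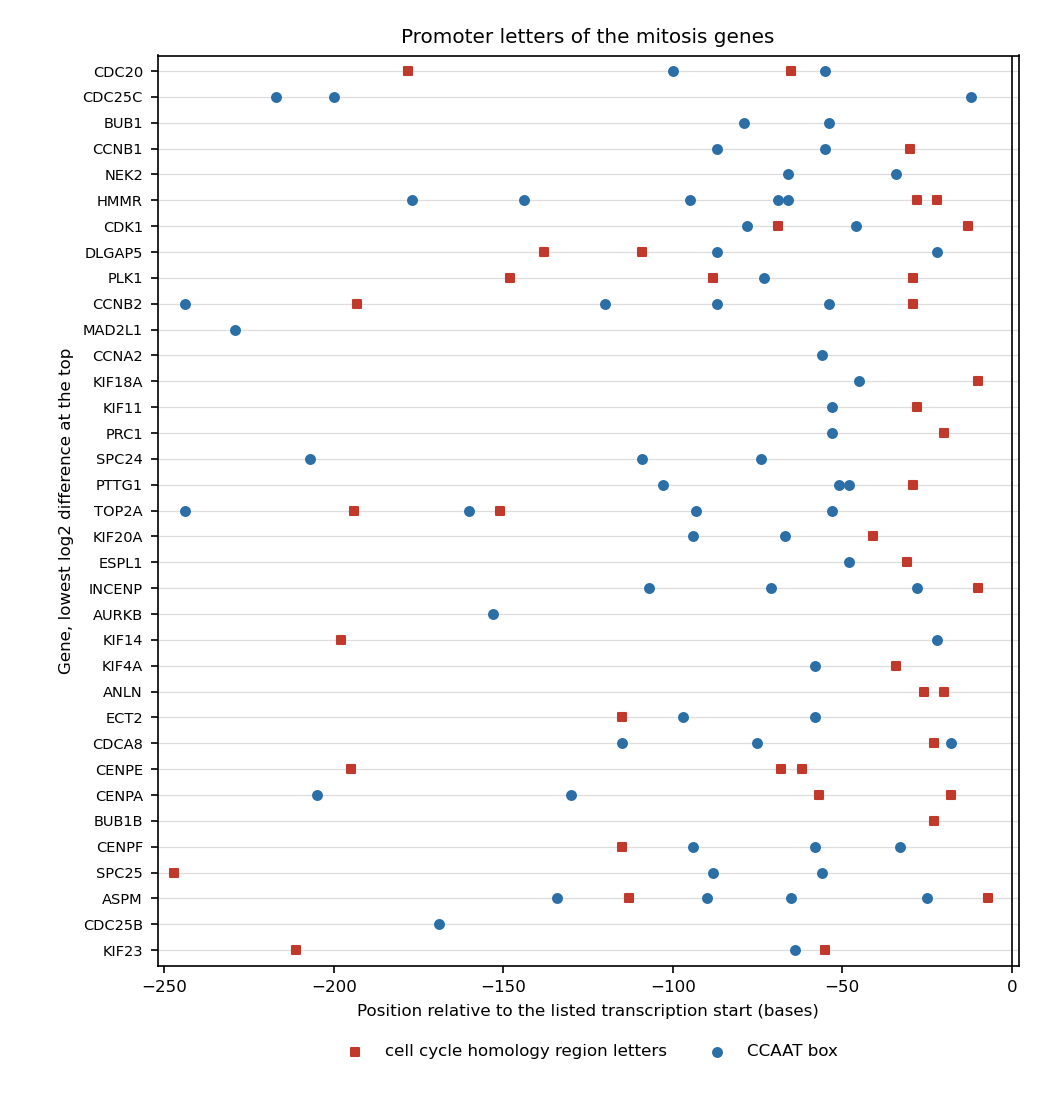
Positions of the homology region letters (red squares) and CCAAT boxes (blue circles) in the 250 bases before the start, for the 35 mitosis genes with a match, at 1 listed start per gene (that with the most matches). Genes run from the lowest log2 difference at the top to the highest at the bottom, and squares gather within 50 bases of the start in genes along the whole range.

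The cyclins and CDK1 carry the cell into mitosis, and 5 of the 6 genes of this role had both arrays of rapamycin then GSK621 below both GSK621 arrays. Over all genes 18.9% did so. The role's median difference was -0.29. CDK1, the kinase itself, had 8.57 and 8.65 in rapamycin then GSK621 cells, against 8.97 and 8.85 in GSK621 cells, a log2 difference of -0.30 ± 0.10 (SE). Cyclin B1, CCNB1, its activating partner, had 7.56 and 7.74 against 7.95 and 7.99, a difference of -0.32 ± 0.11. Cyclin B2, CCNB2, had 8.80 and 8.87 against 9.03 and 9.18, a difference of -0.27 ± 0.10. The 3 genes thus differed by similar amounts, and with limma over all genes their adjusted p was 0.564, 0.564 and 0.584. CCNA2, the cyclin of S phase and early mitosis, had -0.21 ± 0.09. Of the phosphatases that activate CDK1, CDC25C had -0.38 ± 0.16 and CDC25B 0.04 ± 0.10. CDC25C varied within each group by nearly as much as between them, with 6.20 and 6.50 against 6.59 and 6.88, and its difference was -0.23 without replicate 1 of rapamycin then GSK621.

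Of the kinases outside the checkpoint, NEK2, which splits the centrosomes, had 7.03 and 7.13 in rapamycin then GSK621 cells, against 7.42 and 7.37 in GSK621 cells. Its difference was -0.32 ± 0.10 (adjusted p = 0.562 with limma over all genes). PLK1, a kinase of mitotic entry, spindle and cytokinesis, had 9.49 and 9.47 against 9.65 and 9.89, a difference of -0.29 ± 0.12. AURKA, the centrosomal Aurora kinase, had 6.46 and 6.54 against 6.56 and 6.84, a difference of -0.20 ± 0.13. In all 3 kinases both arrays of rapamycin then GSK621 lay below both GSK621 arrays, as in 18.9% of all genes. The differences of PLK1 and AURKA leaned on GSK621 replicate 2, and without it they were -0.17 and -0.06.

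The kinetochore and checkpoint genes had differences from -0.39 to 0.01. Of the 4 subunits of the NDC80 complex, the microtubule grip of the outer kinetochore, NUF2 had 8.20 and 8.30 in rapamycin then GSK621 cells, against 8.58 and 8.69 in GSK621 cells, a log2 difference of -0.39 ± 0.10 (adjusted p = 0.522 with limma). Its dimer partner NDC80 had 7.22 and 7.48 against 7.57 and 7.81, a difference of -0.34 ± 0.14. The other two subunits had overlapping arrays, SPC24 at -0.17 ± 0.13 and SPC25 at 0.01 ± 0.14. Without replicate 1 of rapamycin then GSK621 the difference of NDC80 was -0.21, and without GSK621 replicate 2 that of SPC24 was -0.02. The 95% interval of SPC25 was -0.33 to 0.35, and the difference between subunits was not tested.

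Among the checkpoint kinases and their partners, BUB1, a kinase at the kinetochore, had 9.04 and 9.20 against 9.43 and 9.50, a difference of -0.35 ± 0.11 (adjusted p = 0.559 with limma). TTK, the kinase that starts checkpoint signalling, had -0.27 ± 0.12, and MAD2L1, the protein that binds CDC20, had -0.23 ± 0.10. Without replicate 1 of rapamycin then GSK621 these were -0.15 for TTK and -0.15 for MAD2L1. BUB1B, the BUB1-related protein of the same checkpoint, had -0.01 ± 0.10 with overlapping arrays. The centromere genes stayed near 0, with CENPA, the centromeric histone, at -0.04 ± 0.11, the kinetochore motor CENPE at -0.06 ± 0.12 and the large kinetochore protein CENPF at 0.0012 ± 0.11. Of the 11 genes of this role 9 had a difference below 0, and the median was -0.17. In 5 both arrays of rapamycin then GSK621 lay below both GSK621 arrays, against 18.9% of all genes.

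The chromosomal passenger complex, which corrects wrong attachments and later guides cytokinesis, had differences between -0.12 and 0.06 in its 4 subunits. Its scaffold INCENP had 7.26 and 7.18 in rapamycin then GSK621 cells, against 7.30 and 7.37 in GSK621 cells, a difference of -0.12 ± 0.10. The kinase AURKB had 8.22 and 8.16 against 8.21 and 8.40, a difference of -0.11 ± 0.11. BIRC5, the survivin gene, had 6.43 and 6.40 against 6.21 and 6.49, a difference of 0.06 ± 0.12. In AURKB and BIRC5 the groups overlapped, and CDCA8, the borealin gene, had -0.06 ± 0.13. The difference of AURKB was -0.02 without GSK621 replicate 2, and that of INCENP was -0.07 without replicate 2 of rapamycin then GSK621.

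The 7 mitotic kinesins, motors that slide or shorten spindle microtubules, had a median difference of -0.13. In limma 0 of them had an unadjusted p under 0.05, where 4.20% of all genes were lower and 4.31% higher. Both arrays of rapamycin then GSK621 lay below both GSK621 arrays in 4, against 18.9% of all genes. They lay above in 1, against 20.5%. KIF18A, a regulator of microtubule length at kinetochores, had 6.54 and 6.63 in rapamycin then GSK621 cells, against 6.78 and 6.81 in GSK621 cells, a difference of -0.21 ± 0.10. KIF11, the motor that pushes spindle poles apart, had 9.62 and 9.54 against 9.80 and 9.76, a difference of -0.20 ± 0.10. KIF2C, a microtubule depolymerase, had 8.10 and 7.93 against 8.28 and 8.07, with the groups overlapping, and a difference of -0.16 ± 0.12 that was -0.06 without GSK621 replicate 1 and -0.27 without GSK621 replicate 2. KIF20A had -0.13 ± 0.10, KIF14 -0.10 ± 0.15 and the chromokinesin KIF4A -0.09 ± 0.10. KIF20A was at -0.09 without replicate 2 of rapamycin then GSK621, and KIF4A at -0.04 without replicate 1. KIF23, a kinesin of the central spindle, was the gene of the 45 with all its values in the other order, at 8.87 and 8.92 against 8.85 and 8.82, a difference of 0.06 ± 0.09 (0.04 without replicate 2 of rapamycin then GSK621).

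Spindle assembly genes had the lowest role median with those of the cyclins and kinases, at -0.29. At an unadjusted p under 0.05 in limma 3 of the 5 were lower, against 4.20% of all genes. CKAP2, a microtubule-associated protein, had 9.51 and 9.52 in rapamycin then GSK621 cells, against 9.92 and 9.81 in GSK621 cells, a difference of -0.35 ± 0.10 (adjusted p = 0.541 with limma). HMMR, a spindle pole protein, had 9.13 and 9.30 against 9.51 and 9.53, a difference of -0.30 ± 0.11. DLGAP5, which stabilises kinetochore fibres, had 8.64 and 8.77 against 8.94 and 9.05, a difference of -0.29 ± 0.10. The groups did not overlap in these genes, nor in TPX2, the activator of AURKA, at -0.23 ± 0.10. Of all genes 18.9% lay below without overlap. ASPM, a spindle pole protein, had 0.02 ± 0.12 with overlapping arrays.

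Anaphase genes held the largest difference of the 45. CDC20 had 8.22 and 8.02 in rapamycin then GSK621 cells, against 8.68 and 8.75 in GSK621 cells, with means of 8.12 ± 0.14 and 8.72 ± 0.05 (SD, n = 2 each). Its log2 difference was -0.60 ± 0.11, with a 95% interval of -0.88 to -0.32 and an adjusted p of 0.430 with limma over all genes. Without any single array it stayed between -0.70 and -0.50. The other genes of this step lay nearer 0. Separase, ESPL1, the protease that parts sister chromatids, had 6.20 and 6.18 against 6.22 and 6.40, a difference of -0.12 ± 0.11 (-0.03 without GSK621 replicate 2). Its inhibitor securin, PTTG1, had 5.97 and 5.63 against 5.93 and 5.94, a difference of -0.13 ± 0.14 that rested on replicate 2 of rapamycin then GSK621 and was 0.04 without it. UBE2C, the APC/C's ubiquitin-conjugating enzyme, had -0.0025 ± 0.11.

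Cytokinesis genes had differences of -0.18 to -0.08. PRC1, which bundles the microtubules of the central spindle, had 7.92 and 7.91 in rapamycin then GSK621 cells, against 8.10 and 8.08 in GSK621 cells, with no overlap and a difference of -0.18 ± 0.09. ANLN, a scaffold of the contractile ring, had 8.78 and 8.73 against 8.79 and 8.89, a difference of -0.08 ± 0.10 (-0.03 without GSK621 replicate 2). ECT2, the exchange factor that activates RhoA at the cell equator, had 8.40 and 8.25 against 8.36 and 8.46, overlapping, with -0.08 ± 0.11 (-0.0096 without replicate 2 of rapamycin then GSK621). Of the remaining genes, TOP2A, the topoisomerase that untangles chromosomes, had 10.12 and 10.09 against 10.24 and 10.23, a difference of -0.13 ± 0.09. FOXM1, the transcription factor of many of these genes, had 7.90 and 8.04 against 7.81 and 8.10. Its groups overlapped, and the difference was 0.02 ± 0.13 with a 95% interval of -0.32 to 0.35.

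**Figure D3:**
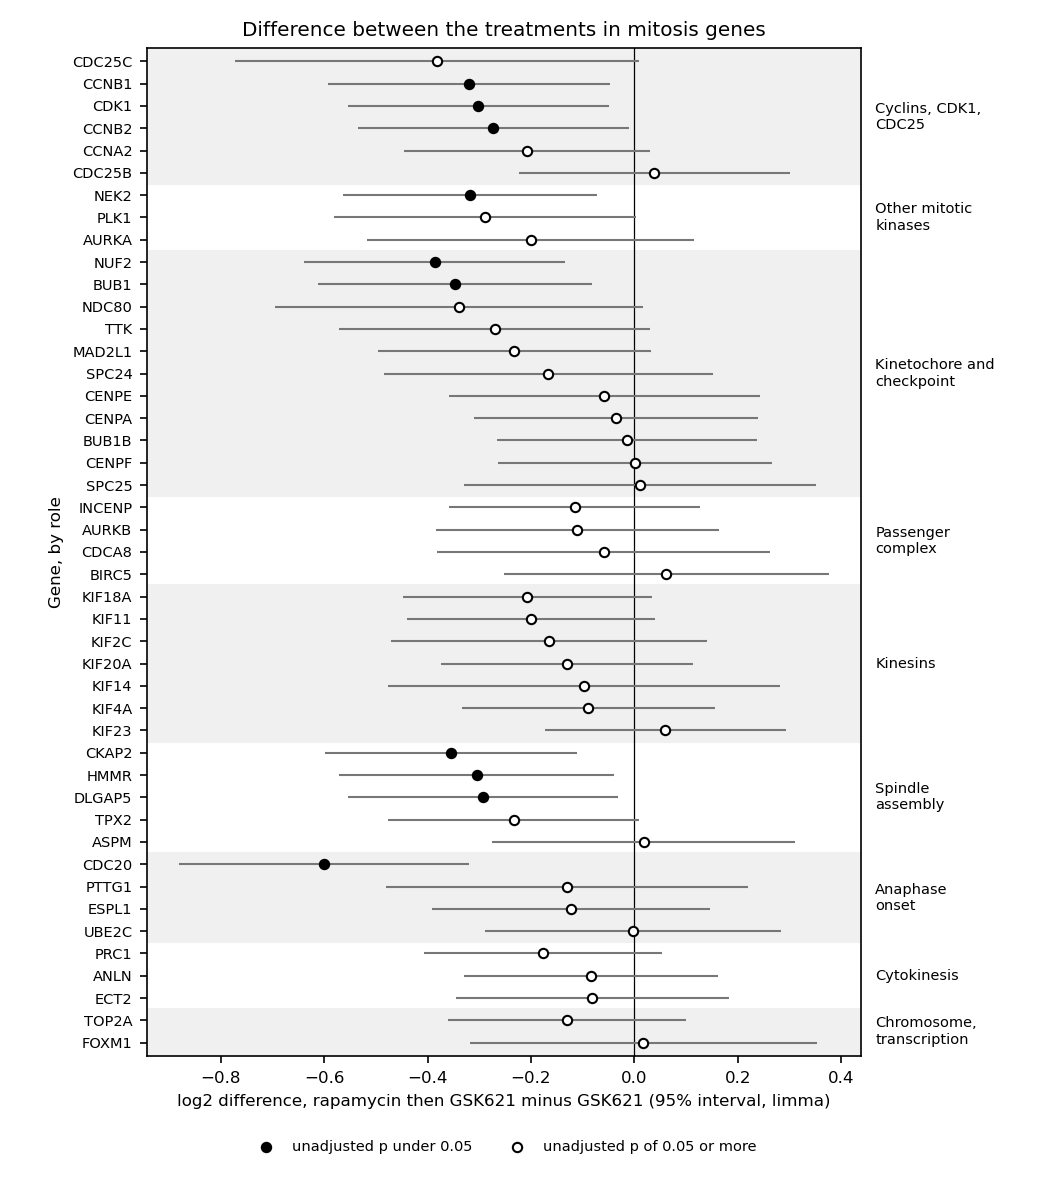
log2 difference, rapamycin then GSK621 minus GSK621, of the 45 mitosis genes with its 95% interval from limma (n = 2 arrays per group), by role. Filled circles are the 10 genes at an unadjusted p under 0.05, and 0 genes passed after adjustment over all genes. All 10 were lower, as were 4.20% of all genes at that unadjusted p. CDC20 lies farthest left at -0.60, and the 4 passenger complex genes lie between -0.12 and 0.06.

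Other genes of mitosis were read from lists chosen by function. Over 125 measured genes of 7 lists, 81 had a difference below 0, with a median of -0.04. Of these, 7 were lower and 4 higher at an unadjusted p under 0.05 in limma, and the lowest adjusted p was 0.545. These are 5.60% lower and 3.20% higher, near the 4.20% and 4.31% of all genes. The proliferation marker MKI67 had 10.31 and 10.41 in rapamycin then GSK621 cells, against 10.27 and 10.31 in GSK621 cells, a difference of 0.07 ± 0.10 (0.02 without replicate 2 of rapamycin then GSK621).

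Among further G2/M and spindle genes 27 of 34 were below 0, with a median of -0.08. SHCBP1, a midbody protein, had -0.35 ± 0.10 and DEPDC1B -0.25 ± 0.09. CDC25A, the phosphatase that also acts at the G1/S step, had 0.33 ± 0.11, with 6.24 and 6.09 against 5.75 and 5.92. Among 33 further kinetochore genes 19 were below 0, with a median of -0.04. At an unadjusted p under 0.05 in limma 3 were lower, against 4.20% of all genes. These were CENPL (-0.27 ± 0.10) and CENPK (-0.31 ± 0.12), subunits of the inner kinetochore, and SKA1 (-0.36 ± 0.14), which holds kinetochores on microtubules. Without replicate 1 of rapamycin then GSK621 CENPK was at -0.19 and SKA1 at -0.20. Subunits and regulators of the APC/C, the ligase that CDC20 activates, had 8 of 17 genes below 0 and a median of 0.0077. In that list the subunit ANAPC7 had 0.26 ± 0.09, CDC27 had -0.17 ± 0.10, and UBE2S, the enzyme that lengthens its ubiquitin chains, had -0.45 ± 0.17 (-0.21 without replicate 2 of rapamycin then GSK621).

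Condensin genes, which compact chromosomes, had 6 of 8 values below 0 and a median of -0.10, with NCAPG at -0.21 ± 0.10, NCAPG2 at -0.18 ± 0.09 and SMC2 at -0.14 ± 0.09. Cohesin genes and the shugoshins had 9 of 12 below 0 and a median of -0.06. The shugoshins, which protect cohesin at centromeres, had the lowest values there, with SGO1 at -0.30 ± 0.12 and SGO2 at -0.27 ± 0.13, while the cohesin regulator PDS5A had 0.15 ± 0.09. SGO1 was at -0.19 without GSK621 replicate 2, and SGO2 at -0.11 without replicate 1 of rapamycin then GSK621. Centriole genes had 6 of 7 below 0 and a median of -0.05, with the kinase PLK4 at -0.19 ± 0.11, CPAP at -0.11 ± 0.10 and CEP192 at 0.07 ± 0.10. Without GSK621 replicate 2 PLK4 was at -0.10 and CEP192 at 0.01, and without replicate 1 of rapamycin then GSK621 CPAP was at -0.07.

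Regulators of these genes were read as a list of their own. The list held 14 genes, 13 of the DREAM complex, MuvB core and MYB family and the related pocket protein gene RB1 (-0.04 ± 0.10). Of these 6 were below 0, and the median was 0.11. At an unadjusted p under 0.05 in limma 2 of the 14 were higher, against 4.31% of all genes. E2F4, the repressive E2F of the DREAM complex, had 8.61 and 8.40 in rapamycin then GSK621 cells, against 8.20 and 8.14 in GSK621 cells, a difference of 0.33 ± 0.11 (adjusted p = 0.564 with limma). Its dimer partner TFDP1 had 0.19 ± 0.09. MYBL1 had 0.32 ± 0.12 but a low level, at percentile 27.2. MYBL2, the activator that joins MuvB at mitotic promoters, had -0.13 ± 0.09.

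DNA replication and G1/S genes, expressed earlier in the cycle, were set beside the mitosis genes. Of 40, 13 had a difference below 0 and the median was 0.10, against 38 of 45 and -0.16 for the mitosis genes. At an unadjusted p under 0.05 in limma 4 were higher and 1 was lower, where 4.31% of all genes were higher and 4.20% lower. Both arrays of rapamycin then GSK621 lay above both GSK621 arrays in 17 of the 40 and below in 4. Of all genes 20.5% lay above in this way and 18.9% below. Cyclin E1, CCNE1, had 6.27 and 6.29 against 5.72 and 5.86, a difference of 0.49 ± 0.10, the uracil glycosylase UNG had 0.47 ± 0.10 and the primase subunit PRIM1 0.41 ± 0.09. The sliding clamp PCNA had -0.07 ± 0.11. The difference between the lists was not tested.

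**Figure D4:**
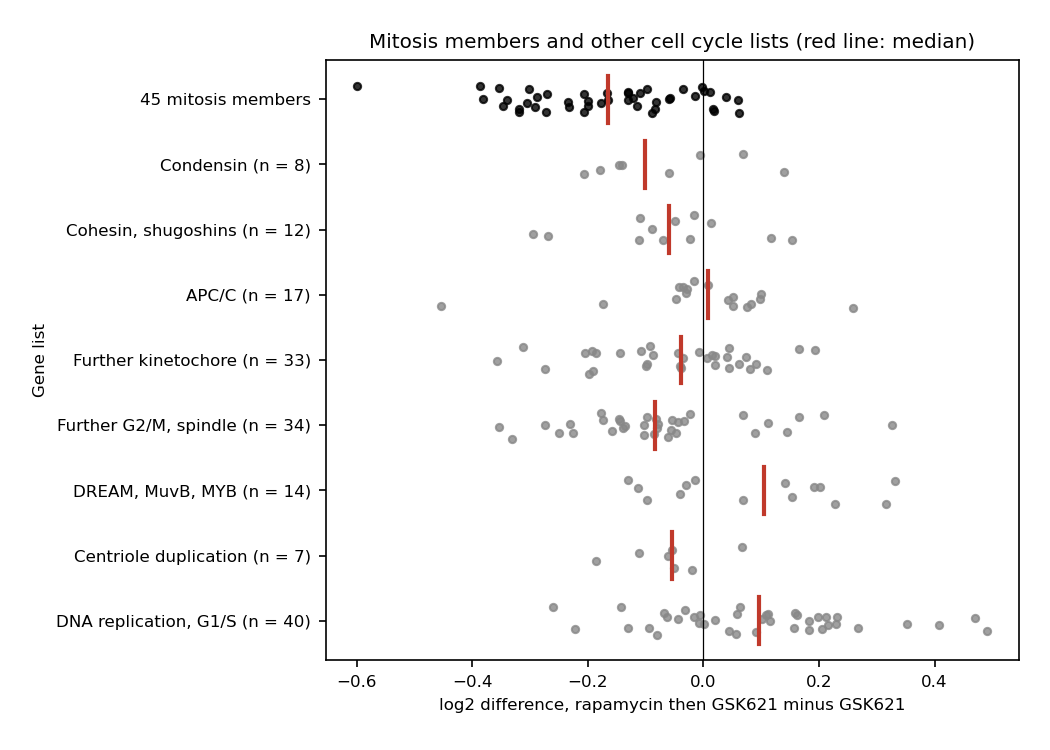
log2 difference, rapamycin then GSK621 minus GSK621, of each measured gene in the 45 mitosis genes (black) and in 8 other cell cycle lists (grey), with each list's median as a red line. The mitosis genes have a median of -0.16, and the DNA replication and G1/S genes one of 0.10.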

How the data were processed

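RNA of 4 cultures was hybridised to Affymetrix whole-transcript arrays, per the labels' protocols. The authors deposited 1 value per probe set and array, taken here as log2 from its range, and R 2.15.3 and Partek were used, per the submitters' processing notes. Background correction, normalization, probe summary and log base are not given in the sources used here, and no detection calls were used. Values ran from 1.84 to 13.28.

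Probe sets were named through the platform annotation (24244 of 25582 had 1 symbol), and of a gene's several probe sets the highest was kept, leaving 24241 genes. Groups came from the sample titles. The values were fitted as deposited with limma 3.58.1 in R 4.3.3 (lmFit, eBayes, two-sided, Benjamini-Hochberg over all genes, threshold 0.05). The fit had 2 residual degrees of freedom. With 2 arrays on each side, exact permutation reaches no p under 0.333, so it was not used. The fit was tested on simulated data with effects larger than those of the mitosis genes, so that test does not cover differences of their size. With 2 arrays per group, their number limits the precision.

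The members and the gene lists were chosen with earlier results of these data known. All 45 members are given. Array values are given for up to 3 genes per role with the smallest p and for FOXM1, CCNB1, CDK1, PLK1 and AURKA, and up to 3 genes per other list are named, with MKI67, MYBL2, CCNE1 and PCNA. CDC25C and KIF23 values and the marker genes' values were added after their values were seen. The other lists held 189 genes, of which 183 were measured. Promoters are RefSeq sequence of GRCh38.p14.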

Additional observations from a re-analysis of the deposited data

How the results depend on the processing

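In 13 other settings, arrays were rescaled by quantiles, median centring or cyclic loess, dim genes were dropped, moderation was removed or given a trend, probe sets were averaged or kept apart, replicate numbers were blocked, and each array was left out. No member passed an adjusted p under 0.05 in any of them, and the median difference of the 45 genes stayed between -0.20 and -0.13. All genes called numbered 3 with genes above the median level, 74 with a variance trend and 1 without moderation, against 0. Members at an unadjusted p under 0.05 numbered 19 with genes above the median level (6.34% of the genes then tested were lower), 20 with a variance trend (5.05%) and 1 to 10 with an array left out (3.16% to 4.02%). With each array centred on its median this count was 8 (3.73%), with quantile normalization 12 (4.31%) and with cyclic loess 13 (4.43%). With the replicate number as a block it was 12 (4.44%), the median was unchanged at -0.16 and 0 genes were called. Same-numbered arrays hardly deviated together (r = 0.09 over all genes, which are not independent). With so few arrays, this r cannot show whether same-numbered cultures were handled together. The sample labels give only the replicate number, and a shared batch was not tested.

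The sign held for 32 of the 45 genes in the 13 settings, and for 26 of 27 named genes of other cell cycle lists in those run (12 for MYBL1 and UBE2S, which lie below the median level). Blood cell markers were not recomputed. The exceptions had differences of -0.13 to 0.06, and the cause was not tested. With quantile normalization SPC25 turned to -0.00884 and FOXM1 to -0.00344, with cyclic loess SPC25 to -0.00769 and CENPF to -0.00553, and with centring UBE2C to 0.00185. With 1 array left out, CDC25B ranged from -0.022 to 0.099, BUB1B from -0.082 to 0.053, SPC25 from -0.13 to 0.15, CENPA from -0.12 to 0.047, CENPE from -0.19 to 0.069, CENPF from -0.080 to 0.083, BIRC5 from -0.078 to 0.20, CDCA8 from -0.19 to 0.070, KIF14 from -0.25 to 0.052, ASPM from -0.10 to 0.14, UBE2C from -0.083 to 0.078, PTTG1 from -0.30 to 0.042, FOXM1 from -0.13 to 0.16 and PCNA from -0.16 to 0.021. Signal over background was not known for any probe set.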
